A study of Homo sapiens with 3 samples.

Results

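The cells described here are human mesoderm cells at their earliest stage, taken from day 2 of a stem cell culture and selected on measured counts of MESP1, the transcription factor that marks mesoderm as it leaves the primitive streak. A kept cell of the day 2 library belonged to the group when it held at least 2 unique molecular identifiers (UMIs, counts of distinct captured RNA molecules) of MESP1. That rule took 1587 of the 7892 kept day 2 cells, or 20.1%, out of 18830 kept cells in the series. The cells set beside them, called streak cells here, were 1051 day 2 cells with at least 2 UMIs of TBXT, the brachyury gene that marks the primitive streak, and no MESP1 UMI. Another 706 day 2 cells had exactly 1 MESP1 UMI, and 4548 had neither MESP1 nor as many as 2 TBXT UMIs.

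All cells came from the human embryonic stem cell line UCLA1, which is an established line, in a culture named GiMO in which the cells lie under Geltrex, a basement membrane extract. Libraries were made with the 10x Genomics droplet method after 1, 2 and 3 days, 1 library for each day. The series title concerns a response to BMP4 in a model of the embryonic disc, and the labels state no dose or timing for BMP4. No other genotype or treatment is named in the labels, and the members and the streak cells share their line and library. With 1 library a day no test between groups was possible, no p-value is given, and every interval is a 95% interval for counting error only.

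At gastrulation, epiblast cells move through the primitive streak, lose their epithelial contacts and spread as mesoderm. TBXT, EOMES and MIXL1 act in the streak under NODAL, WNT and BMP signals, and MESP1 and MESP2, a pair of related basic helix-loop-helix factors, follow in the cells that leave. MSGN1 and TBX6 are known for presomitic (paraxial) mesoderm, whereas GATA6, GATA4 and HAND1 are known for lateral and cardiac mesoderm.

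The start regions of MSGN1 and MESP2 are shown because both genes were among those with the largest ratios between the members and the streak cells and both hold letters of the T-box core, the sequence that TBXT and its relatives bind. Each window runs from 250 bases before to 50 bases after the RefSeq start in GRCh38.p14, on the plus strand, and capitals mark the motif letters. The MSGN1 window is chr2:17816210-17816509 and the MESP2 window is chr15:89776082-89776381.
MSGN1: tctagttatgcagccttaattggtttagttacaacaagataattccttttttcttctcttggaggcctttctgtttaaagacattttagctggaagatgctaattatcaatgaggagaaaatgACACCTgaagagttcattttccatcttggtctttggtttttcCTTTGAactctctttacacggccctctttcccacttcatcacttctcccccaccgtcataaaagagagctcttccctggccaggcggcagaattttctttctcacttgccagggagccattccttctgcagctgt
MESP2: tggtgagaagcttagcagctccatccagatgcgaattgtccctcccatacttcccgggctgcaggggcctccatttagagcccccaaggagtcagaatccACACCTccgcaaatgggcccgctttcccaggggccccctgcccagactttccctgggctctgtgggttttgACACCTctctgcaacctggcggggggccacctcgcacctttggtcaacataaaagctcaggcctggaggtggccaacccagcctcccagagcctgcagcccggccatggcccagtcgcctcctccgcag
The T-box core was searched as AGGTGT and the TCF/LEF core, the sequence bound by the factors that act with WNT signals, as CTTTGA, both on either strand and with no overlap between them. The MSGN1 window held 1 T-box core on the minus strand, 127 bases upstream of the start, and 1 TCF/LEF core on the plus strand, 85 bases upstream. The MESP2 window held 2 T-box cores on the minus strand, 150 and 79 bases upstream. Among 35116 windows of this length, 11.4% held the T-box core and 12.9% held the TCF/LEF core. Of the 7 genes with a window among the 12 named below as highest in members, 2 held each core, and of the 7 with a window among the 12 lowest, 0 and 1 did. A match is a run of letters and no measure of binding, and the motifs and windows were chosen after the sequences had been read.

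The label of early mesoderm was set beside markers other than MESP1. MSGN1 and GATA6 were given as markers of this group, which was chosen with earlier results of these data known. Their shares therefore describe the label and do not test it. MSGN1 (ENSG00000151379, hg38 chromosome 2, 17816460 to 17817798, plus strand) was detected in 43.1% of members. After every cell was thinned at random to 5000 UMIs, it was detected in 22.2% of members (20.2% to 24.3%). The share was 0.955% in streak cells (0.459% to 1.75%) and 0.416% in the remaining cells (0.242% to 0.664%). The remaining cells were taken as the background, but some of them may be mesoderm cells whose MESP1 was not captured. GATA6 (ENSG00000141448, chromosome 18, 22169589 to 22202528, plus strand) was detected in 78.6% of members as counted. After thinning it was found in 50.3% of members (47.8% to 52.8%), in 9.17% of streak cells and in 3.47% of the remaining cells. Both markers were thus detected in a larger share of members than of streak cells at equal depth.

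The summed level of 8 mesoderm markers without MESP1 was 475 CPM (counts per 1000000 UMIs) in members, 51.6 in streak cells and 31.0 in the remaining cells. The 5 streak markers other than TBXT were also high, at 887 CPM in members against 687 in streak cells and 240 in the remaining cells. The 4 pluripotency markers summed to 962 CPM in members and 1204 in streak cells. The 2 neural markers were at 0.095 CPM in members, with SOX1 at 0, and 3 endothelial and blood markers were at 2.12 CPM, with TAL1 at 0. A count of 0 in the members allows a level of up to 0.095 CPM, taken as 3 counts of the total. The 3 amnion markers (TFAP2A, GATA3 and ISL1) stood at 53.5 CPM in members and 43.1 in streak cells, and the 3 definitive endoderm markers (SOX17, FOXA2 and HHEX) at 12.6 and 5.47. Most of the streak sum was MIXL1 and most of the pluripotency sum was POU5F1, whose levels are given below. Of the other markers named below, GSC was higher in members and EOMES near equal, whereas FGF8, NANOG and SOX2 were lower. In these measurements the members carried mesoderm markers together with streak and pluripotency markers, mainly MIXL1 and POU5F1.

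Depth differed little between the compared groups. Median UMIs per cell were 17629 in members, 18447 in streak cells, 16735 in cells with 1 MESP1 UMI and 14700 in the remaining cells, and median mitochondrial shares lay between 3.76% and 4.20%. Kept cells of days 2 and 3 shared 13 barcodes and those of days 1 and 2 shared 5. Doublet scores were computed, but the automatic threshold marked 1 cell, so no cell was removed for that reason. Leaving out the 668 cells of highest score took 173 members (10.9%) and 141 streak cells (13.4%).

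Members were then compared with streak cells gene by gene. UMIs were summed over the cells of each class, giving 31566828 UMIs in members and 21217748 in streak cells, and divided by that total. A gene was called higher or lower when its CPM ratio was at least 1.5 either way and its mean over the classes was at least 5 CPM. Of 11429 genes tested, 347 (3.04%) were called higher in members and 444 (3.88%) were called lower. The median gene differed by -0.03 on the log2 scale. A gene below 5 CPM in 1 class passed the minimum only through the other, so its direction was set by that filter. Counts in the gene lists are therefore also given over genes at 5 CPM or more in both classes, of which 2.17% of 11046 were called higher and 3.31% lower. Medians are over all measured genes of a list and describe these only. MESP1 (ENSG00000166823, chromosome 15, 89749875 to 89751249, minus strand) and TBXT (ENSG00000164458, chromosome 6, 166157656 to 166168700, minus strand) chose the cells and were left out of the counts. MESP1 stood at 305 CPM in members and at 0 in streak cells by the rule. TBXT stood at 167 and 155 CPM.

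**Figure D1:**
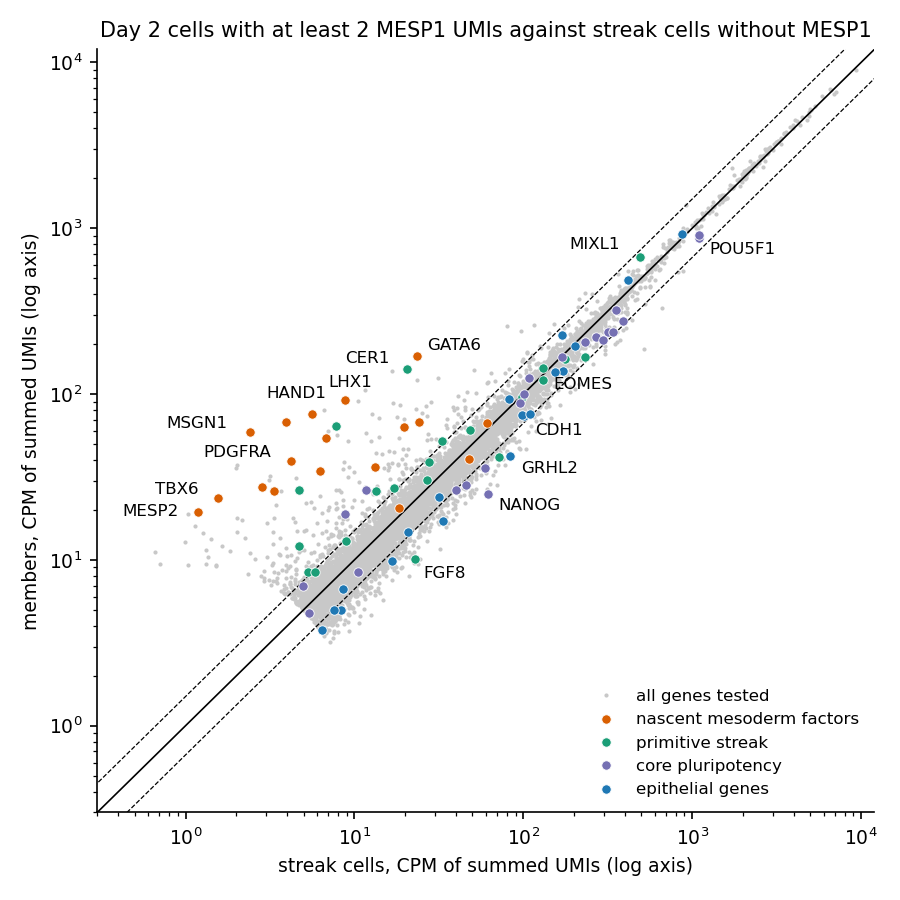
Level of each tested gene in the 1051 day 2 streak cells (horizontal axis) and in the 1587 members (vertical axis), both as CPM of summed UMIs on log axes, with the solid line at equality and dashed lines at a ratio of 1.5. Of the 18 orange points (nascent mesoderm factors), 15 lie above the upper line, among them MSGN1 (59.2 against 2.40 CPM), while GRHL2 and NANOG lie below the lower line.

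Genes of new mesoderm were higher in members. The list counted here holds transcription factors and also ligands, receptors and the enzyme gene CYP26A1. Of the 23 nascent mesoderm factors listed, 18 were measured, 15 were called higher and 0 lower, with a median log2 ratio of 2.98. Of the 18, 7 passed the minimum only through the members, and of the 11 at 5 CPM or more in both classes 8 were higher and 0 lower. MSGN1 was at 59.2 CPM in members (1869 UMIs) and 2.40 CPM in streak cells (51 UMIs), a ratio of 24.6 (18.7 to 33.2). MESP2 was at 19.5 and 1.18 CPM, 16.6-fold apart (11.1 to 25.8). TBX6, a T-box factor of presomitic mesoderm, was at 23.6 and 1.56 CPM (15.2-fold). The 3 factors were thus below 3 CPM in streak cells and at 19.5 CPM or more in members.

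Factors known from lateral and cardiac mesoderm were higher in the same cells. GATA6 was at 169 CPM in members and 23.5 in streak cells, a ratio of 7.18 (6.55 to 7.89). HAND1, a basic helix-loop-helix factor of the heart and extraembryonic mesoderm, was at 75.4 and 5.61 CPM (13.4-fold, 11.2 to 16.3). GATA4 was at 36.4 and 13.2 CPM. Of 18 lateral and cardiac genes 7 were measured, 2 of them only through the members, and the 5 at 5 CPM or more in both classes were called higher. Of 16 paraxial genes 6 were measured, 4 of them only through the members, and of the other 2 genes 1 was called higher and 0 lower. The filter thus set the direction of most measured paraxial genes. The lists share GATA6, HAND1, MSGN1 and others with the mesoderm list and are not separate evidence. Later genes of both fates, among them MEOX1, PAX3, NKX2-5, TBX5 and TNNT2, were below the level minimum.

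Other regulators in the group were LHX1, a homeobox factor of the anterior streak and mesoderm, at 92.7 CPM in members and 8.81 in streak cells, and FOXC1, a forkhead factor of mesoderm, at 27.4 and 2.83 CPM. SNAI1, the repressor that starts the loss of epithelial contacts, was at 34.5 and 6.27 CPM (5.50-fold, 4.59 to 6.64). The zinc finger repressor ZEB2 was at 26.0 and 3.35 CPM. The factor LEF1 was near equal, with a ratio of 1.10. LEF1 and the receptor KDR (40.4 and 47.9 CPM) were among the measured genes that did not pass 1.5-fold.

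Ligands and receptors were also among the higher genes. RSPO3, PDGFRA, APLNR and BMP4 belong to the mesoderm list already counted, and the receptor list shares PDGFRA, APLNR and KDR with it. RSPO3, a secreted amplifier of WNT signals, was at 67.5 CPM in members and 3.91 in streak cells, a ratio of 17.2 (13.9 to 21.7). PDGFRA, a growth factor receptor of early mesoderm, was at 39.3 and 4.19 CPM (9.36-fold), and APLNR, the apelin receptor, was at 54.4 and 6.83 CPM (7.96-fold). BMP4 itself was at 63.6 and 19.6 CPM (3.25-fold). Of 24 receptors and guidance genes, 22 were measured, 11 were called higher and 0 lower and the median was 0.41 (9 and 0 of 19 at 5 CPM or more in both classes). They included the netrin receptor UNC5C (59.6 and 6.93 CPM), the ephrin receptor EPHA4 (77.2 and 25.0 CPM) and the WNT5A receptor ROR2 (262 and 115 CPM).

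Shares of cells at equal depth gave the same order for these genes. After thinning, RSPO3 was detected in 25.1% of members (50.5% as counted), 1.81% of streak cells and 0.611% of the remaining cells. HAND1 was detected in 22.3%, 2.39% and 2.30% of these classes, and PDGFRA in 17.9%, 1.43% and 2.25%. SNAI1 was detected in 16.8% of members, 3.25% of streak cells and 2.15% of the remaining cells. In streak cells the shares of HAND1 and PDGFRA were thus no higher than in the remaining cells beyond their counting intervals.

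Within members, pairs of these genes were counted after thinning in 1586 cells. GATA6 and LHX1 were found together in 18.6% of them, against 13.4% if they were independent, and GATA6 and HAND1 in 13.7% against 11.2%. MSGN1 and HAND1 were found together in 7.00% against 4.94%, whereas MSGN1 and LHX1 were found together in 6.05% against 5.89%. Cells of larger MESP1 count held more of all 4 genes, as the classes below show, so the pairs are a description.

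The 12 genes named as highest, by the bound of the counting interval nearest 1, were MSGN1, RSPO3, LIX1, FSHR, HAND1, MESP2, TBX6, DLL3, GATA6-AS1, IRX3, LHX1 and LZTS1-AS1. Those below 5 CPM in streak cells included MSGN1, RSPO3, LIX1, FSHR, MESP2 and TBX6, and the filter set their direction. DLL3, a Notch ligand of the presomitic mesoderm, was at 79.7 CPM in members and 6.65 in streak cells. LIX1 was at 37.6 and 2.03 CPM, and FSHR, the receptor of follicle-stimulating hormone, was at 35.6 and 1.98 CPM. GATA6-AS1 lies beside GATA6 and its reads may not be separable from those of its neighbour. LIX1, FSHR, GATA6-AS1 and LZTS1-AS1 were in none of the 23 lists.

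Streak genes were not lower as a group. Of 23 listed, 21 were measured, 8 were called higher and 2 lower and the median was 0.49 (6 and 2 of 19 at 5 CPM or more in both classes). MIXL1, a homeobox factor of the streak, was at 669 CPM in members and 492 in streak cells (1.36-fold), and EOMES was at 143 and 132 CPM (1.09-fold). CER1, a secreted antagonist of NODAL, BMP and WNT, was at 142 and 20.5 CPM (6.91-fold, 6.26 to 7.64). WNT5A was at 64.1 and 7.73 CPM, and FGF17 was at 26.4 and 4.67 CPM. The homeobox gene GSC was at 26.0 and 13.4 CPM.

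The called genes that went the other way were FGF8, at 10.1 CPM in members and 23.0 in streak cells, and NKX1-2, at 41.6 and 71.4 CPM. Among FGF ligands FGF17 and FGF8 thus had opposite directions, and FGF4 (30.5 and 27.0 CPM) was near equal. NODAL was at 167 CPM in members and 233 in streak cells, a 1.39-fold lower level that did not pass the threshold.

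Pluripotency genes were lower in part. All 22 listed were measured, 4 were called lower and 2 higher and the median was -0.28 (the same counts over the 20 at 5 CPM or more in both classes). NANOG was at 25.1 CPM in members and 61.5 in streak cells, 2.45-fold lower (2.25 to 2.68). SOX2 was at 26.5 and 39.9 CPM, 1.51-fold lower (1.37 to 1.66), which did not pass 1.5-fold under other scalings (log2 ratio -0.55 with either). POU5F1 was at 906 and 1097 CPM (1.21-fold lower). Among the genes called higher was OTX2 (18.9 and 8.81 CPM), a homeobox factor that is also known from the anterior streak and endoderm. The members thus held most of the POU5F1 level of the streak cells and less than that share of NANOG.

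Epithelial genes were lower in part. Of 21 epithelial genes, 19 were measured, 6 were called lower and 0 higher and the median was -0.40 (3 and 0 of 16 at 5 CPM or more in both classes). GRHL2, a factor that maintains epithelial genes, was at 42.3 CPM in members and 83.8 in streak cells, 1.98-fold lower. The tight junction genes MARVELD3 (17.2 and 33.6 CPM) and OCLN (9.88 and 16.7 CPM) were called lower too. CDH1, the epithelial cadherin, was at 73.9 and 101 CPM (1.37-fold lower, 1.29 to 1.45), and EPCAM was at 138 and 172 CPM (1.25-fold lower). Those 2 genes did not pass the threshold.

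Of 16 mesenchymal genes, 11 were measured, 8 were called higher and 0 lower and the median was 0.79 (6 and 0 of 9 at 5 CPM or more in both classes). CDH2, the cadherin of migrating mesoderm, was at 264 CPM in members and 153 in streak cells (1.73-fold), and CDH11 was at 89.7 and 28.6 CPM (3.14-fold). ZEB1 was at 13.6 and 2.26 CPM (6.02-fold). VIM, a filament gene of mesenchymal cells, was at 172 and 113 CPM (log2 ratio 0.61). That ratio was 0.21 when members were limited to those with at least 2 TBXT UMIs and 0.35 when streak cells needed only 1 TBXT UMI, so the call for VIM was lost under either class limit. SNAI2, TWIST1 and PRRX1 were below the level minimum. After thinning, CDH1 was detected in 28.1% of members and CDH2 in 70.7%, and both in 18.6%, against 19.9% if they were independent.

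Genes of the signal response lists were counted in the same way. Among WNT response genes, 4 of 14 were called higher and 1 lower (median 0.29), or 2 and 1 of the 12 at 5 CPM or more in both classes. LGR5, a receptor for R-spondins, was at 32.0 CPM in members and 3.16 in streak cells, and the WNT antagonist DKK1 was at 84.8 and 26.5 CPM. For the BMP response, 3 of 10 measured genes were called higher and 0 lower (median 0.20). BMPER was at 90.3 and 10.6 CPM and MSX1 was at 71.2 and 19.7 CPM, whereas ID1 (406 and 471 CPM) and ID3 (518 and 511 CPM), direct BMP targets, were near equal.

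For the NODAL response, 2 of 10 were called higher (CER1 and FOXH1) and 2 lower (GDF3 and LEFTY1), with a median of -0.27. For the FGF response, 1 of 11 measured genes was called higher and 0 lower (median 0.00). In the Notch pathway 1 of 8 was called higher and 2 lower (median -0.17), or 1 and 1 of the 7 at 5 CPM or more in both classes. HAS2, the enzyme that makes hyaluronan, was at 259 and 80.5 CPM, and VCAN, a proteoglycan that binds it, was at 185 and 304 CPM. These were the only 2 of 14 measured matrix genes past 1.5-fold. The S phase and G2/M lists had 0 of 15 genes each past the threshold, with medians of -0.07 and 0.02.

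The 12 genes named as lowest were KIAA0825, ADAMTS16, NANOG, RORB, COBL, FRMPD4, FUT9, FRMD5, SEMA3A, STK32A, SAMD12 and PTPRZ1. KIAA0825 was at 186 CPM in members and 518 in streak cells, 2.78-fold lower (2.70 to 2.87). SEMA3A, a secreted guidance cue, was at 46.5 and 103 CPM, and FUT9, a fucosyltransferase, was at 10.1 and 24.6 CPM. Ratios among the lower genes were smaller than among the higher ones. At a 2-fold limit 183 genes were higher and 55 lower.

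Genes of other fates were also counted. Of 12 definitive endoderm genes, 7 were measured, 5 were called higher (CER1, GSC, OTX2, PRDM1 and SOX17) and 1 lower (KIT). PRDM1 and SOX17 passed the minimum only through the members and KIT only through the streak cells. SOX17, a factor of endoderm and germ cells, was at 10.9 CPM in members and 3.58 in streak cells (3.03-fold, 2.36 to 3.94). FOXA2 and HHEX were below the minimum, and after thinning FOXA2 was detected in 0.252% of members and 0.478% of streak cells. Of 14 amnion genes 5 were measured and 1 (ISL1, 10.8 and 4.19 CPM) was called higher. ISL1 passed the minimum only through the members, and 0 of the 4 amnion genes at 5 CPM or more in both classes were called. In the germ cell list 2 of 5 measured genes were called higher (PRDM1 and SOX17) and 2 lower (KIT and TFAP2C). At 5 CPM or more in both classes the counts were 0 higher and 1 lower of 2 genes. The call for KIT was lost under both other scalings (log2 ratios of -0.55 and -0.56) and that for TFAP2C with classes and sums at 5000 UMIs per cell (-0.52). Of 13 hemato-endothelial genes 3 were measured and 1, FLT1, was called lower (30.3 and 46.0 CPM), a call lost under both other scalings (-0.56 with either). The part of cells of these types in the other differences was not tested.

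Levels were then followed by the number of MESP1 UMIs, which the rule used, so what follows is a description. Of the members, 304 had 2 MESP1 UMIs, 569 had 3 to 5, 511 had 6 to 10 and 203 had more than 10, with a highest value of 28. Median depth in these classes was 17334, 17178, 17758 and 18440 UMIs, so the class of highest MESP1 was also the deepest. MSGN1 was at 8.84 CPM in the cells with 1 MESP1 UMI, just outside the rule, and at 24.6 CPM in those with 2, just inside it. It stood at 41.6, 76.2 and 112 CPM in the 3 classes above.

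GATA6 followed the same order, at 42.6 CPM with 1 MESP1 UMI, 80.7 with 2, then 142, 213 and 254 CPM. TBX6 was at 5.23 and 8.25 CPM on the sides of the threshold and at 46.6 CPM in the top class. LHX1 was at 22.4 CPM with 1 UMI, 45.0 with 2, then 75.5, 120 and 137 CPM. HAND1 was at 23.0 CPM with 1 UMI and 26.8 with 2, whose intervals overlap, and at 178 CPM in the top class. The cells just outside the rule thus held mesoderm genes above the streak cells and below the members. No TBXT limit was set on them, and TBXT was at 112 CPM in the cells with 1 MESP1 UMI.

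Streak and pluripotency genes were flatter. MIXL1 lay between 627 and 695 CPM in the 4 member classes and EOMES between 132 and 151 CPM. CER1 was highest in the class with 6 to 10 MESP1 UMIs (174 CPM) and was at 131 CPM above 10. NODAL was at 219 CPM with 2 MESP1 UMIs and 112 CPM with more than 10, and POU5F1 was at 965 and 823 CPM. CDH1 was at 85.9 and 61.0 CPM in the same classes, and CDH2 at 240 and 296 CPM.

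SOX17 had another order. It was at 3.58 CPM in streak cells, 13.0 in cells with 1 MESP1 UMI, 13.6 with 2 and 18.2 (15.8 to 20.9) with 3 to 5. It was then at 5.38 CPM with 6 to 10 and at 1.16 CPM (0.376 to 2.70) with more than 10. SOX17 was thus highest in members of low MESP1 and below the streak cell level in those of the highest MESP1.

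**Figure D2:**
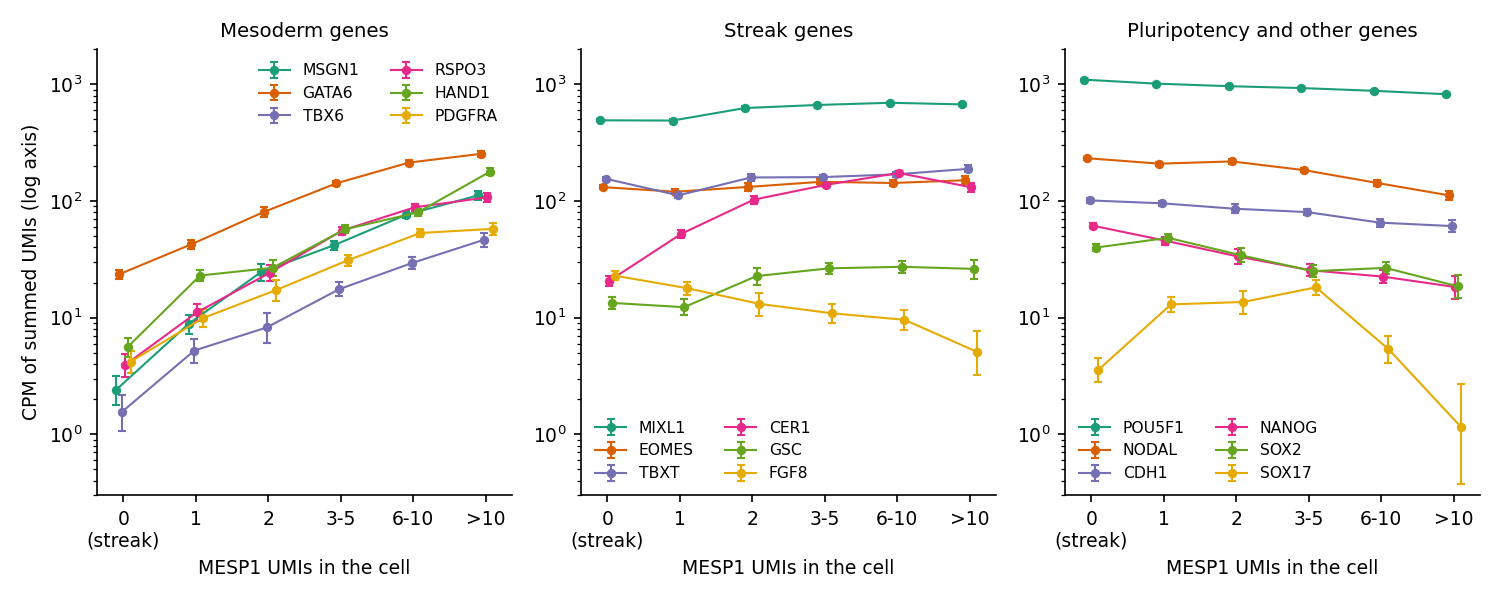
Level of 18 genes (CPM of summed UMIs, log axes, error bars are 95% Poisson intervals for counting error) in day 2 streak cells and in cells with 1, 2, 3 to 5, 6 to 10 and more than 10 MESP1 UMIs. MSGN1 goes from 2.40 CPM in streak cells to 112 CPM in the top class, MIXL1 stays between 490 and 695 CPM, and SOX17 is highest at 3 to 5 MESP1 UMIs (18.2 CPM).

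Members also varied in TBXT. At least 2 TBXT UMIs were found in 1112 members (70.1%), 1 in 262 (16.5%) and 0 in 213 (13.4%), and median depth was 18852.5, 15376 and 14094 UMIs in these classes. Depth therefore moved with the class, and its part in the differences was not tested. Between members with at least 2 TBXT UMIs and those with 0, 242 of 11417 genes (2.12%) were called higher and 405 (3.55%) lower. Among members the cells without TBXT had more of the lateral and mesenchymal genes. Of 12 measured lateral and cardiac genes, 9 were called lower with TBXT and 0 higher (median -1.35), or 5 and 0 of the 8 at 5 CPM or more in both classes.

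HAND1 was at 228 CPM in members without TBXT, 123 with 1 TBXT UMI and 44.1 with at least 2, so the extremes were 5.16-fold apart (4.70 to 5.67). LHX1 was at 204, 114 and 72.3 CPM, and VIM was at 363, 241 and 131 CPM. HOXB6, a homeobox gene of trunk mesoderm, was at 31.2, 10.5 and 2.07 CPM, and passed the level minimum only through the members without TBXT. Each of the 4 genes was at an intermediate level in members with 1 TBXT UMI.

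Other genes of the members without TBXT were PMP22 (30.4 CPM against 2.29 with at least 2 TBXT UMIs), the homeobox gene MEIS2 (15.9 against 2.50) and CLSTN2, a calsyntenin (132 against 10.6). PMP22 and MEIS2 passed the level minimum only through the members without TBXT, so the filter set their direction. Of 13 measured mesenchymal genes 7 were called lower with TBXT and 0 higher (median -0.62), among them SNAI2 (15.9 CPM without TBXT and 6.05 with it) and TWIST1 (13.0 and 5.46). SOX17 was at 29.8 CPM without TBXT and 7.62 with it. The primitive streak list was split, with 5 of 21 measured genes called higher with TBXT and 3 lower (median 0.19). The higher genes included FGF4 (10.7 CPM without TBXT and 33.9 with it), NODAL (98.0 and 183) and MIXL1 (455 and 716). The lower genes were CER1, LEFTY2 and WNT5A. None of the 21 measured pluripotency genes passed 1.5-fold.

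The given markers MSGN1 and GATA6 did not follow TBXT. MSGN1 was at 52.6 CPM without TBXT and 58.0 with it, and GATA6 was at 185 and 166 CPM. TBX6 was at 19.9 and 23.1 CPM, with intervals that overlap. MESP1 was at 357 CPM in the members without TBXT and 290 in those with at least 2 UMIs. The rule used MESP1, so its levels are a description. The median was 5 MESP1 UMIs per cell in either class, at median depths of 14094 and 18852.5 UMIs.

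The markers MSGN1 and GATA6 divided the members further. Both were detected in 583 members (36.7%), GATA6 alone in 664 (41.8%), MSGN1 alone in 101 (6.36%) and neither in 239 (15.1%). After thinning, 13.1% of 1586 members held both, against 11.2% if they were independent. Median depth was 17178 UMIs in members with MSGN1 only and 17752 in those with GATA6 only. Between these, 428 of 11398 genes (3.76%) were called higher with MSGN1 only and 686 (6.02%) lower. The class with MSGN1 only is small, so its levels have wide intervals.

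Definitive endoderm genes were higher in members with GATA6 only. CER1 was at 252 CPM in them and 6.52 CPM in members with MSGN1 only, 38.6-fold apart (22.6 to 72.6). LHX1 was at 131 and 11.0 CPM, GSC at 37.2 and 3.01 CPM, and OTX2 at 25.4 and 2.51 CPM. GSC and OTX2 passed the level minimum only through the members with GATA6 only. Of 6 measured definitive endoderm genes, 5 were called lower with MSGN1 only and 0 higher (median -2.23), or 3 and 0 of the 4 at 5 CPM or more in both classes. SOX17 was at 16.4 CPM with GATA6 only and 7.52 CPM with MSGN1 only. The primitive streak list was split, with 6 of 21 measured genes called higher with MSGN1 only and 6 lower. EOMES (174 CPM with GATA6 only and 60.7 with MSGN1 only) and MIXL1 (797 and 372 CPM) were among the genes on the GATA6 side, and CDX1, CDX2, LEFTY2, WNT3A, WNT5B and WNT8A were on the MSGN1 side.

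The mesoderm list was divided between these classes. MESP2 was at 21.7 CPM with GATA6 only and 5.52 with MSGN1 only, PDGFRA was at 47.8 and 11.5 CPM, and FOXC1 was at 30.5 and 6.52 CPM. TBX6 was at 18.2 and 18.6 CPM. HAND1 (60.3 and 106 CPM) and BMP4 (49.4 and 79.7 CPM) were higher with MSGN1 only. Of 18 measured genes of the list, 9 were thus lower and 2 higher with MSGN1 only.

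Of 7 measured paraxial genes 2 were called higher with MSGN1 only (HES7 and PAX3, which passed the minimum only through that class) and 2 lower (FOXC1 and MESP2). Of 8 measured lateral and cardiac genes 5 were called higher with MSGN1 only (BMP4, HAND1, ISL1, PMP22 and TMEM88) and 2 lower (GATA4 and IRX3). At 5 CPM or more in both classes, 3 of 5 lateral and cardiac genes were higher and 1 lower. CDX2, a homeobox factor of the posterior streak, was at 52.7 CPM with MSGN1 only and 16.7 with GATA6 only (3.15-fold, 2.47 to 3.99). HES7, the oscillating Notch target of the segmentation clock, was at 13.0 and 2.66 CPM on 26 and 35 UMIs, and PAX3, a paired box factor of somites, was at 16.0 and 0.989 CPM on 32 and 13 UMIs. LEFTY2, a NODAL antagonist, was at 45.1 and 8.82 CPM.

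Some epithelial and amnion genes were also higher in that class. Of 17 measured epithelial genes 5 were called higher with MSGN1 only and 0 lower, and CDH1 was at 108 and 70.5 CPM and KRT18 was at 1377 and 778 CPM. Of 6 measured amnion genes 5 were called higher and 0 lower (median 0.79), or 4 and 0 of the 5 at 5 CPM or more in both classes, with TFAP2A at 22.6 and 14.5 CPM and GATA3 at 41.6 and 21.8 CPM. The part of amnion cells in the class was not tested.

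**Figure D3:**
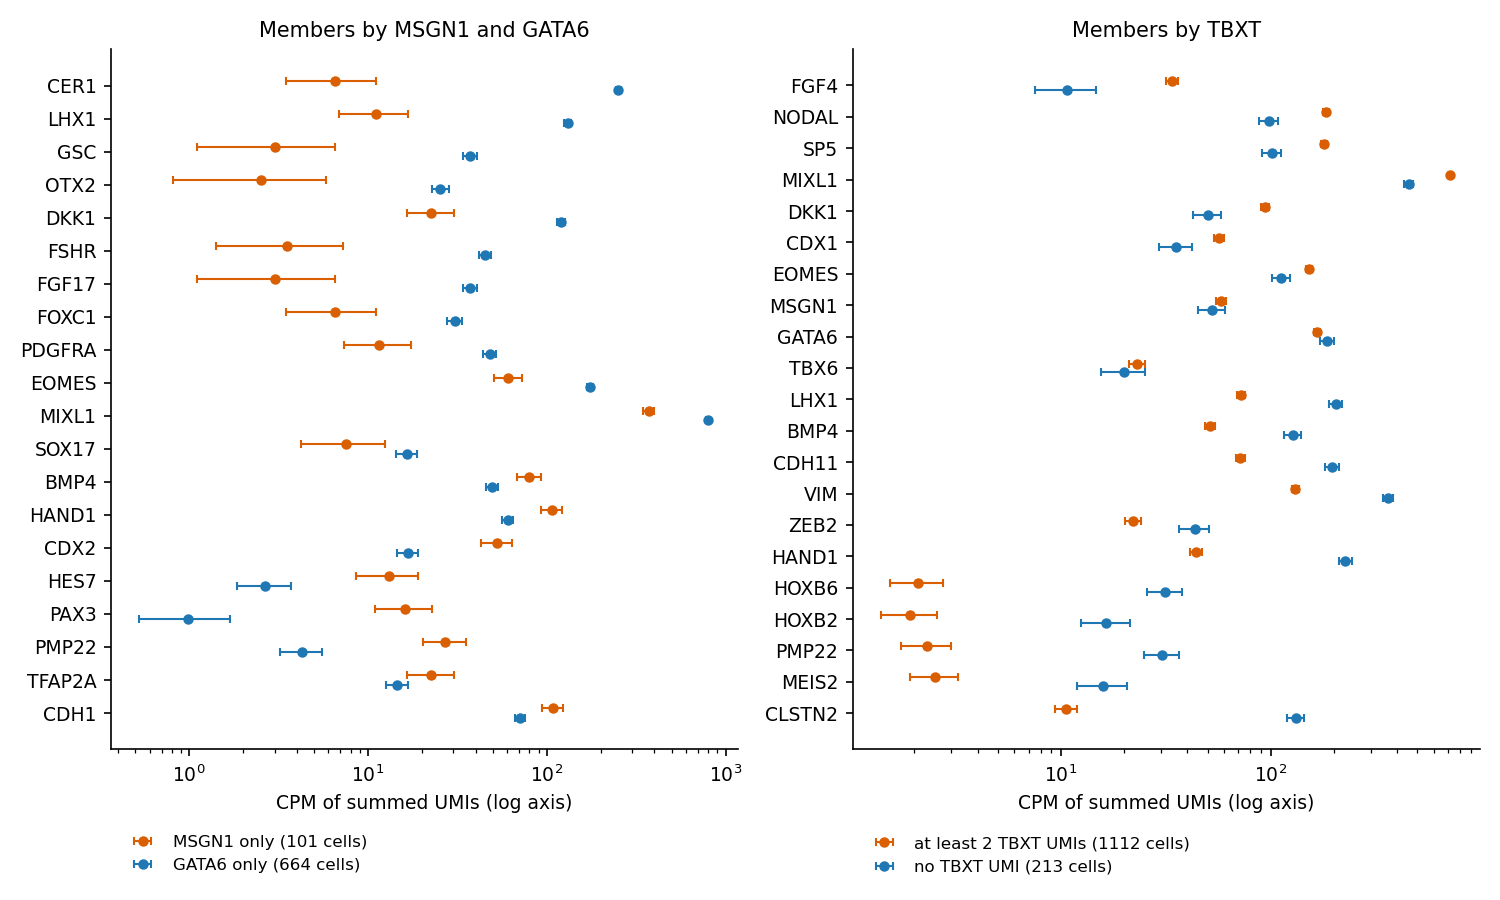
Level of 20 genes in members with MSGN1 only and with GATA6 only (left panel), and of 21 genes in members with at least 2 TBXT UMIs and with none (right panel), as CPM of summed UMIs on log axes with 95% Poisson intervals for counting error. CER1 and LHX1 are 38.6-fold and 11.9-fold higher with GATA6 only, CDX2 is 3.15-fold higher with MSGN1 only, and HAND1 is 5.16-fold higher in members without TBXT.

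The same rule was applied to the other libraries. At day 1 it took 8 of 3677 kept cells, and at day 3 it took 5310 of 7261 (73.1%) beside 144 streak cells. Day, library and any batch cannot be told apart, so the day 2 and day 3 values are given side by side. They share no cells. At day 3, of 11656 genes tested, 961 (8.24%) were called higher in MESP1 cells and 1902 (16.3%) lower. The 144 streak cells held 2981254 UMIs, so ratios at day 3 have wider intervals for low genes.

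Of 21 measured nascent mesoderm factors at day 3, 18 were called higher and 0 lower (median 2.56), or 14 and 0 of the 17 at 5 CPM or more in both classes. MSGN1 was at 24.2 CPM in MESP1 cells and 4.36 in streak cells at day 3, against 59.2 and 2.40 at day 2. GATA6 was at 300 and 46.6 CPM at day 3, LHX1 at 767 and 68.1, and HAND1 at 461 and 66.1. The ratios were 5.55 for MSGN1, 6.43 for GATA6, 11.3 for LHX1 and 6.97 for HAND1. In day 3 the MESP1 cells thus had lower MSGN1 and higher GATA6, LHX1 and HAND1 than the day 2 members, in libraries that were not replicated.

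Pluripotency and epithelial genes were further apart in the day 3 library. Of 21 measured pluripotency genes 13 were called lower and 2 higher (median -0.80), and of 16 measured epithelial genes 11 were called lower and 0 higher (median -1.68). Over genes at 5 CPM or more in both classes, 8 of 16 pluripotency genes and 8 of 13 epithelial genes were lower. NANOG was at 4.68 CPM in day 3 MESP1 cells and 80.2 in streak cells, POU5F1 was at 371 and 972 CPM, and CDH1 was at 25.4 and 73.1 CPM. NODAL was at 22.0 and 135 CPM, against 167 and 233 at day 2. Of 21 HOX genes, 9 were measured in the day 3 library, 5 of them only through the MESP1 cells, and the other 4 were called higher, with HOXB6 at 111 and 19.8 CPM. HOXB6 was below the level minimum at day 2.

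Germ cell genes were higher in the day 3 streak cells. Of 7 measured genes of that list, 4 passed the minimum only through the streak cells, and the other 3 were called lower in day 3 MESP1 cells. NANOS3 was among the genes called lower, and so was TFAP2C (3.29 CPM against 70.4 in streak cells). SOX17 was at 7.61 CPM in day 3 MESP1 cells and 60.7 in streak cells, and PRDM1 was at 9.60 and 71.8 CPM. The day 3 cells with TBXT and no MESP1 thus held markers of another cell type. Human primordial germ cells are known to express TBXT, NANOG and POU5F1, and their part in the day 3 ratios of these genes was not tested. At day 2 the summed germ cell markers NANOS3 and TFAP2C were at 9.03 CPM in members and 12.7 CPM in streak cells.

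**Figure D4:**
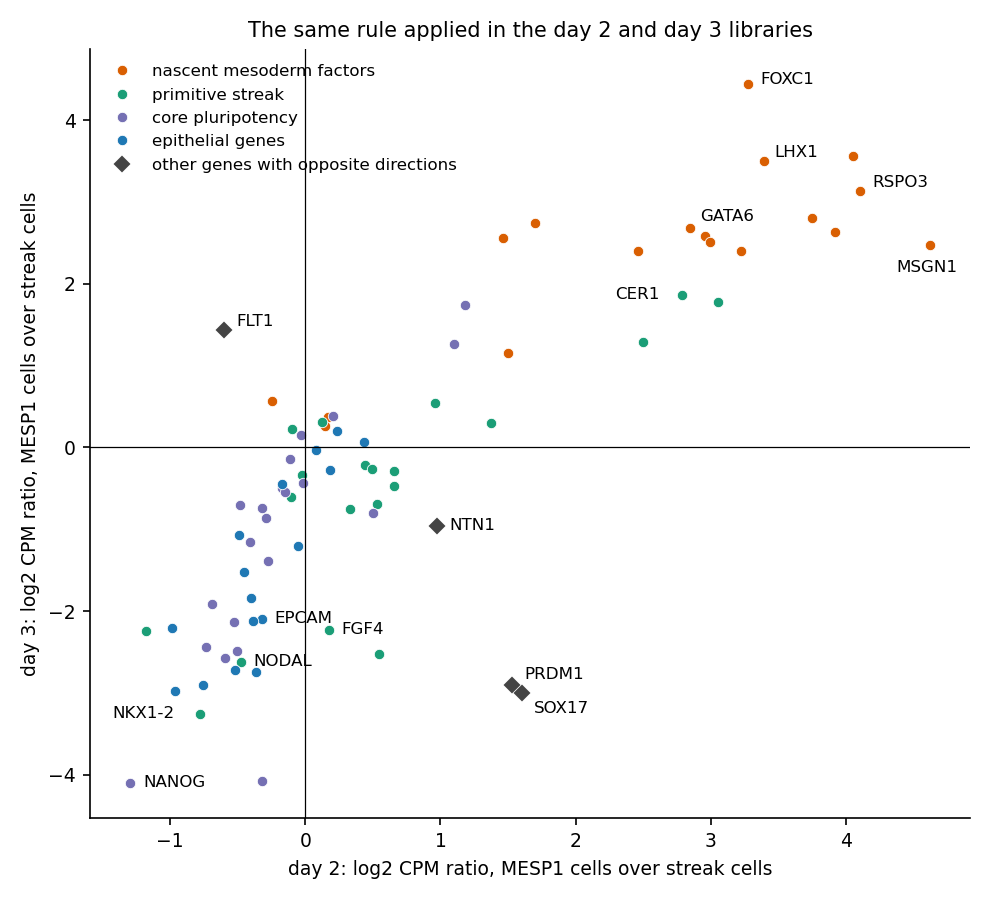
log2 CPM ratio of cells with at least 2 MESP1 UMIs over streak cells in the day 2 library (horizontal axis) and in the day 3 library (vertical axis), for 4 gene lists and 4 further genes whose directions differ. MSGN1 (4.62 and 2.47) and LHX1 (3.39 and 3.49) are high in both, NANOG (-1.30 and -4.10) is low in both, and SOX17 (1.60 and -3.00) and PRDM1 (1.53 and -2.90) have opposite directions. MSGN1, SOX17 and PRDM1 were below 5 CPM in the day 2 streak cells, so the filter set their day 2 direction.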

How the data were processed

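UCLA1 cells of days 1, 2 and 3 were trypsinised and captured with the 10x Genomics system, per the labels' protocols. For each library the authors deposited a matrix of raw counts of UMIs for 36601 genes, with no normalisation, and their processing notes name Cell Ranger 5.0.1 and hg38. The labels do not say whether the libraries were prepared together.

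A barcode was kept with 1000 or more genes and no more than 20% of UMIs from mitochondrial genes. The day 2 matrix held 10580 barcodes and 140291909 UMIs. Members, streak cells and the remaining classes were taken from raw MESP1 and TBXT counts. UMIs were summed per class and divided by their total (CPM). Levels have exact Poisson intervals, ratios exact conditional binomial intervals and shares exact binomial (Clopper-Pearson) intervals, all at 95%. A gene was called at a ratio of 1.5 with a mean of at least 5 CPM. Shares were computed after thinning each cell to 5000 UMIs without replacement. The named genes were the given markers, the 317 genes of 23 lists and, per comparison, the 12 highest and 12 lowest by the interval bound nearest 1, leaving out clone-named, mitochondrial, ribosomal protein, XIST and Y-linked genes and those that define the classes. The members and lists were chosen with earlier results of these data known.

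Alternatives covered scaling (edgeR 4.0.16 TMM, DESeq2 1.42.0 median of ratios), level minimum, threshold, cell filters, depth, class limits, the mean of each cell's CPM and doublet scores (Scrublet in scanpy 1.11.5, 0.8% per 1000 barcodes). The steps were tested on simulated counts. Positions are from GENCODE 44 on hg38 and promoter sequences from RefSeq on GRCh38.p14, and counts of overlapping or antisense genes may share reads. Proteins were not used here. A few list genes are counted but not reported here by name.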

Additional observations from a re-analysis of the deposited data

Results flagged for a closer look

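Among the 368 listed or named genes, 5 had a log2 CPM ratio of MESP1 cells over streak cells that passed 1.5-fold in opposite directions in the day 2 and day 3 libraries. Other genes were not looked at for this. SOX17 had 1.60 at day 2 and -3.00 at day 3, and PRDM1 had 1.53 and -2.90. At day 2 SOX17 and PRDM1 passed the level minimum only through the members, so the filter set their direction in that library. NTN1, a secreted guidance cue, had 0.97 and -0.96, and NPFF, a neuropeptide precursor, had 1.79 and -0.79. FLT1, a receptor for vascular growth factors, had -0.60 and 1.43, and its day 2 call was lost under both other scalings. With 1 library a day the differences between days were not tested. The streak cells of day 3 numbered 144 and held the germ cell genes named above.

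In the day 1 library, which no comparison used, 8 kept cells had at least 2 MESP1 UMIs. Their median depth was 68346 UMIs against 42295 for all kept day 1 cells.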

How the results depend on the processing

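The comparison of day 2 members with streak cells was repeated under 13 alternatives. None of the 95 values of listed or named genes past 1.5-fold changed direction where the gene was still tested. Smaller values were not counted for this. The other level minimums and the 2-fold threshold leave each gene's ratio as it was, so they could not change a direction. The 2 other scalings shift every log2 ratio by the same small amount, so they could not reverse a value past 1.5-fold either. For genes below 5 CPM in 1 class the level filter set the direction. Of these 95 gene values, 82 stayed past 1.5-fold the same way under every alternative in which the gene was still tested (the 2-fold threshold aside). A gene that fell below the level minimum of an alternative was not counted as lost. Of 237 listed or named genes tested in the main comparison, 168 were tested with a mean of at least 20 CPM. With a mean of at least 20 CPM, 140 genes were higher and 176 lower; streak genes counted 4 higher and 1 lower, pluripotency genes 0 higher, mesenchymal genes 5 higher and epithelial genes 2 lower. Without a level minimum, 2948 genes were higher and 3179 lower. At 2-fold, 183 were higher and 55 lower, with 4 streak genes higher and 1 lower, 1 pluripotency gene lower, 5 mesenchymal genes higher and 0 epithelial genes lower. With members of at least 5 MESP1 UMIs (877 cells), 676 genes were lower, 7 of them pluripotency genes. Pluripotency genes counted 7 lower with streak cells of at least 1 TBXT UMI and 8 lower among cells of 10000 to 30000 UMIs. With classes and sums taken at 5000 UMIs per cell, 537 genes were higher and 766 lower, with 8 pluripotency genes lower and 1 epithelial gene higher. The cause of these shifts was not tested, apart from the level minimum and the 2-fold threshold, which change the genes counted by construction. TMM and median-of-ratios scaling moved the median of all genes from -0.03 to 0.02 and 0.01. No paired analysis was possible because each day has 1 library. A cell's MESP1 class rests on few UMIs, so some cells that express MESP1 are counted outside the members.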
